A study of Drosophila melanogaster with 12 samples.

Results

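Polycomb binding in the larval fat body was set against that in glia of the larval central brain, fragment by fragment, in Drosophila melanogaster. The members were the GATC fragments with a Polycomb score in both profiles, 139469 of the 356504 fragments of the deposited table. Every score is the authors' mean log2 ratio of Dam-Polycomb to Dam only, and each profile was centred by subtracting its own median over all its scored fragments, 0.09 in fat body and -0.60 in glia. Unless "as deposited" is written, scores below are centred log2 values, and a difference is the centred fat body score minus the centred glia score. Neighbouring fragments with differences of one sign were joined into runs, and well-known genes were set beside them. No dm3 annotation was used: gene positions are background knowledge, checked only for their spacing. A gene was kept where either end of its window passed that check to within 5 kb. Each gene name thus marks an approximate window, of which the other end may lie further off.

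Polycomb is a chromodomain protein that reads a methyl mark on histone tails and acts in a Polycomb repressive complex, which keeps developmental regulators silent where they are not used. Its best known targets are the Hox genes and other transcription factor and signalling genes, over which it spreads in broad domains. The fat body is the larval organ of storage, metabolism and humoral immunity. Glia insulate, feed and support the neurons of the brain and are marked by the homeodomain factor Repo. In DamID, a bacterial adenine methyltransferase (Dam) fused to a chromatin protein methylates GATC sites near its binding places, and Dam alone reports accessibility.

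Both tissues came from larvae of the wandering stage, in the last instar, with 2 biological replicates each of Dam-Polycomb and Dam only. Fat body larvae were males on a y,w background. Their element was FL.hsp70P-Dam[4-HT-intein@L127C] for Dam only, and the same followed by -PC for Dam-Polycomb, in each case inserted at ZH51C. They were raised on food with 25 µM 4-hydroxytamoxifen, which triggers splicing of the intein that interrupts Dam, and 10 larvae were pooled per sample. Glia larvae were males and females pooled, y,w/w, with repoFlp5 over an insertion at ZH51C, which was min.hsp70P-STOP#1-Dam-PC for Dam-Polycomb and min.hsp70P-STOP#1-Dam for Dam only. Their food held no drug, and 20 larvae gave the central brains of a sample. There a recombinase driven by repo removes a stop cassette in front of Dam (the DamFLP system), so that methylation is limited to cells with that history inside a whole dissected brain. All lines carry the transgene at the landing site ZH51C and an hsp70 promoter, with the prefix FL in the fat body lines and the prefix min in the glia lines. Tissue, Dam system, promoter form, drug and sex therefore changed together and cannot be told apart in any difference below. With replicate means as the only values, the spread between animals is unknown and no test was possible. Each SD below describes how scores vary among the fragments of a stretch. The whole central brain profile of the same series, from males with the uninduced intein system, is given as a further value where it bears on a locus. DamID gives no expression, so the labelled cell types could not be checked against marker transcripts.

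Over the shared fragments the fat body profile lay above the glia profile at 62.2% of positions. The median difference was 0.47 (quartiles -0.56 and 1.51, SD 1.64). A total of 50604 fragments (36.3% of those compared) were over 1 higher in fat body, and 24121 (17.3%) were over 1 higher in glia. This balance rests on where the profiles are centred. As deposited, the median difference was 1.16 and the counts were 75507 and 12327. With both profiles centred on the shared fragments they were 39990 and 32088, and after quantile normalization 35874 and 35340, so that the share of called fragments that were higher in fat body ranged over 67.7% as centred here, 86.0% as deposited, 55.5% and 50.4%. The signs and limits below are counted from equal centred scores, not from the median difference of 0.47. A run or locus is therefore best read with that median beside it. The scatter plot of the profiles shows the spread around the diagonal.

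**Figure D1:**
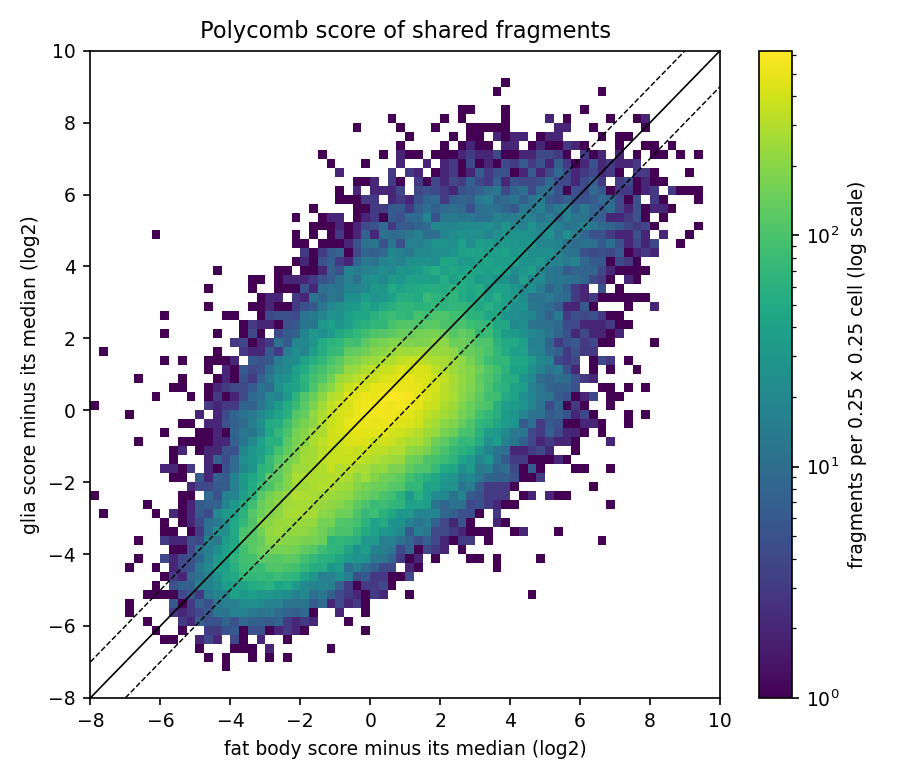
Centred fat body score (x, log2) against centred glia score (y, log2) of the 139469 shared fragments, coloured by the number of fragments per cell on a log scale. The solid line marks equal scores and the dashed lines a difference of 1; 36.3% of fragments lie beyond the line on the fat body side and 17.3% beyond the line on the glia side.

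The difference varied with fragment length, but not in a single direction. Fragments of up to 100 bp had a median difference of 0.16, with 30.4% over 1 higher in fat body and 23.6% over 1 higher in glia. The median was 0.61 over 100 and up to 200 bp, and it was highest in the next class. Fragments over 200 and up to 400 bp had a median difference of 0.73, with 42.7% over 1 higher in fat body and 13.6% over 1 higher in glia. Fragments over 1500 and up to 3000 bp had a median of -0.31, with 19.9% and 33.1%, and the 713 fragments over 3000 bp a median of -1.47, with 8.84% and 61.7%. When the median of each length class was subtracted, 35536 fragments were over 1 higher in fat body and 35282 in glia. The part of fragment length in single loci was not tested beyond this. All 24 named runs, which were picked for a large difference, kept their direction under this subtraction. Of the 53 gene windows, en and eya changed from slightly higher in fat body, by 0.44 and 0.04, to -0.06 and -0.48. Scores were also missing unevenly. The 12940 fragments scored in fat body alone had a median fat body score of -1.46, and 3.65% of them exceeded 2. The 56634 fragments scored in glia alone had a median glia score of 0.49, and 22.0% of them exceeded 2. The fragments compared thus leave out 12441 with a high glia score and 472 with a high fat body score.

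Chromosome arms differed little. The median difference was 0.51 on X (23004 fragments), 0.46 on the large autosomal arms together (113545) and 0.36 on chromosome 4 (1725). On X, 37.4% of fragments were over 1 higher in fat body and 16.5% over 1 higher in glia, against 36.0% and 17.5% on the large autosomal arms. The 1195 fragments on heterochromatic scaffolds had a median difference of 0.76, and 42.8% and 11.1% passed those limits. The share of males differed between the profiles, and its part in the X value was not tested.

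High Polycomb scores were shared at many places, and at others one profile was high and the other near its median. In all, 8240 fragments exceeded 2 in both profiles, which is 34.7% of the fragments over 2 in fat body and 55.2% of those over 2 in glia. Another 7293 exceeded 2 in fat body and stayed under 0.5 in glia, and 2541 exceeded 2 in glia and stayed under 0.5 in fat body. The central brain profile, which shares no library with either, was over 2 at 80.7% of the fragments high in both (7148 with a brain score). It was over 2 at 11.4% of those high in fat body with low glia (4877) and at 48.8% of those high in glia with low fat body (1920), while the share over all shared fragments was 17.5% (92822). Among the 3 groups with a high score, the brain share was thus lowest where fat body alone of the pair was high. Repo-marked glia are themselves part of the dissected brain, so the brain profile is not a separate tissue from the glia.

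**Figure D2:**
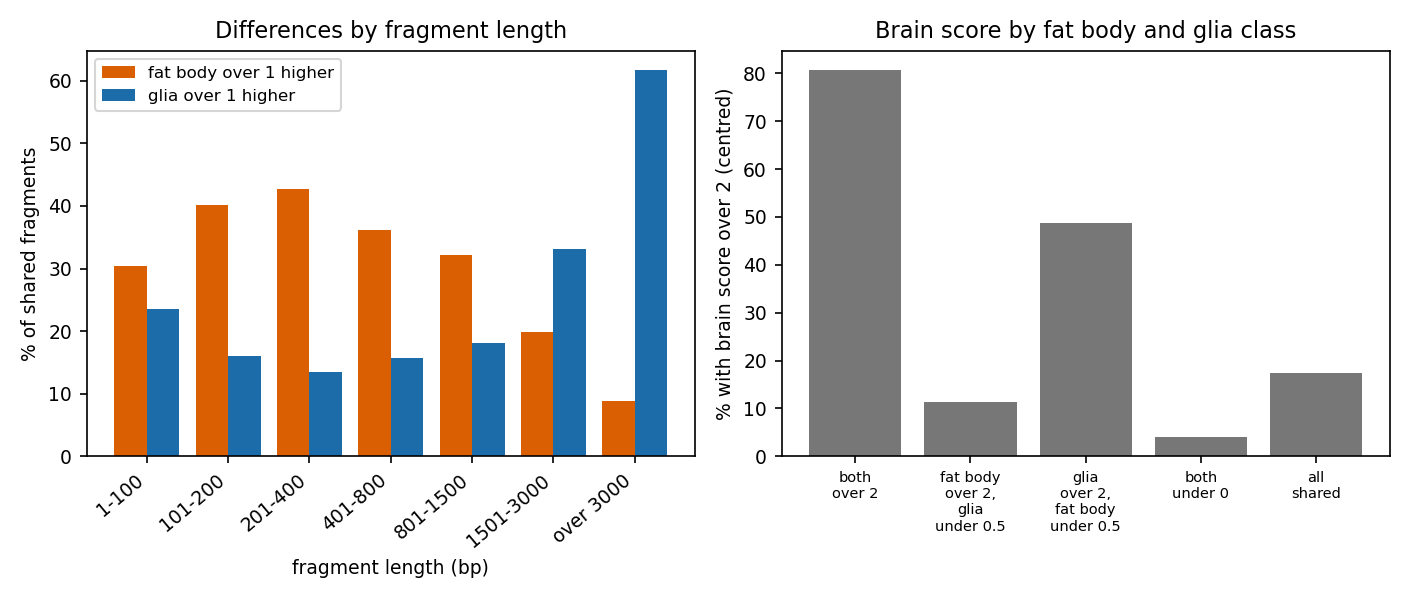
Left, share of shared fragments over 1 higher in fat body (orange) and over 1 higher in glia (blue) by fragment length in bp. Right, share of fragments with a centred brain score over 2 in classes set by the fat body and glia scores. The fat body share exceeds the glia share up to 1500 bp and is below it for longer fragments, and brain is over 2 at 80.7% of fragments high in both profiles.

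Differences of one sign came in stretches. The difference of a fragment and that of the next shared fragment had a Pearson correlation of 0.57 over 139458 neighbour pairs, which share libraries and a chromosome and are not independent. Of these pairs 72.9% had the same sign, where the shares of each sign alone give 53.0%. There were 5721 runs of at least 5 fragments with fat body higher, which covered 47.8 Mb with a median length of 6.07 kb. There were 2625 such runs with glia higher, over 20.7 Mb with a median length of 5.44 kb. Of these 8346 runs, 4673 had a mean over 1 higher in fat body (56%) and 1683 a mean over 1 higher in glia (20.2%). The longest runs were fewer and nearly as frequent in either direction: 23 runs of at least 50 fragments had fat body higher, with a median run mean of 2.19, and 21 had glia higher, with a median run mean of -2.63.

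Long runs of large difference were mostly places where one profile was near or under its median. Picking runs by a large difference itself favours a low score in 1 profile, so the counts below only describe the picked runs. Of 548 fat body runs of at least 10 fragments with a mean difference over 2, glia was under 0.5 in 515 and fat body itself over 2 in 141. Their median was 1.27 in fat body and -1.12 in glia, so most of them were places of moderate fat body score and low glia score. Of 189 glia runs of that kind, fat body was under 0.5 in 126 and over 2 in 12, and glia was over 2 in 104. Their median was -0.18 in fat body and 2.29 in glia. Brain was over 2 in 28 of the 471 fat body runs with at least 5 brain scores and in 88 of 181 glia runs, with medians of -0.62 and 1.73. Of all shared fragments, 17.0% were over 2 in fat body and 10.7% in glia. Brain was over 2 at 17.5% of those with a brain score. These shares are of single fragments, not of run means. The plot of runs by size shows the named ones among the rest.

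**Figure D3:**
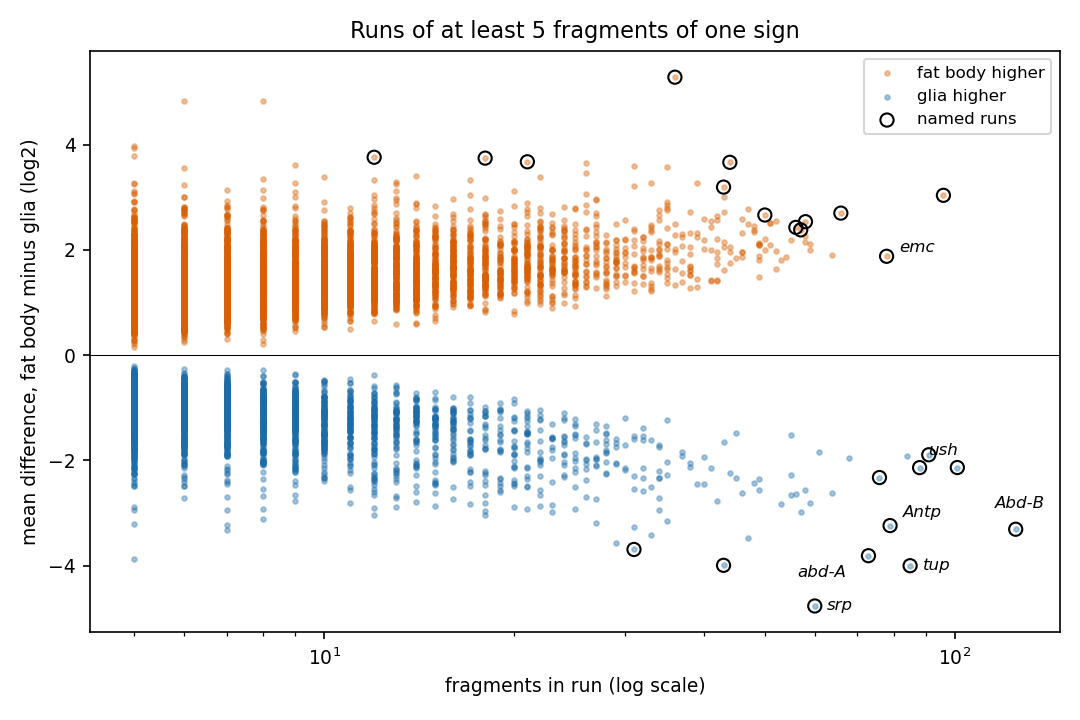
Each point is a run of at least 5 consecutive shared fragments of one sign, placed by its number of fragments (x, log scale) and its mean difference, fat body minus glia (y, log2). Orange runs have fat body higher and blue runs glia higher. Circles mark the named runs, with gene names where a listed or added gene overlaps them. The srp run has the lowest mean of the circled runs, at -4.76.

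The glia run with the largest mean difference, among those of at least 10 fragments, lay at serpent (srp). The gene encodes the GATA factor that is required to form the fat body. Its run, on 3R from 11809968 to 11831086 (dm3, 21.1 kb, 60 fragments), had a lowest, median and highest score of -2.89, -0.37 and 4.58 in fat body, against 1.87, 4.42 and 6.78 in glia. The mean was -0.26 in fat body (SD 1.58) and 4.50 in glia (SD 1.23), a difference of -4.76 (SD 1.41). The brain mean there was 5.80. Every glia score of the run lay above the glia median, whereas fat body was near its median on average, and the ranges overlapped through the highest fat body fragments. The srp window reaches past the upper end of this run, to 11839770. Over its 69 fragments the mean was 0.63 in fat body (SD 2.59) and 4.58 in glia (SD 1.20), a difference of -3.95. Fat body was higher at 8 of them.

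Beside the srp run the profiles met. In the 10 kb beyond its upper end, 11 shared fragments averaged 5.41 in fat body and 4.84 in glia. That stretch overlaps the srp window, so fat body was raised in part of the window. In the 10 kb before its lower end both were low, at -1.52 in fat body and -1.74 in glia. The neighbouring pannier (pnr), another GATA factor gene used in dorsal patterning and the heart, lay in a run from 11839249 to 11868418 with 2.58 in fat body and 4.32 in glia. There the difference of -1.74 left both profiles raised. Over its whole window pnr averaged 1.28 in fat body and 2.04 in glia, within 1 of each other.

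tailup (tup), which encodes a LIM-homeodomain protein of the Islet family that acts in motor neurons and in heart and wing disc patterning, lay in the run of the second largest sum of differences for glia. The run on 2L from 18858912 to 18915439 (56.5 kb, 85 fragments) ranged from -2.13 over a median of -0.06 to 2.88 in fat body, and from -1.16 over 3.88 to 6.90 in glia. Its means were -0.04 in fat body (SD 1.20) and 3.96 in glia (SD 1.25), a difference of -4.00 (SD 1.61), and the brain mean was 5.36. Fat body averaged near its median over a stretch that was high in glia and in brain, and the ranges overlapped. The run reaches past the tup window, which spans 18854873 to 18886606. Over the 51 fragments of that window the mean was -0.72 in fat body (SD 0.89) and 3.45 in glia (SD 2.70). The window difference was -4.17, and fat body was higher at 5 fragments. tup was recognised at this position after its values were seen, as were ush and emc below.

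The posterior Hox genes formed the largest block of glia excess, but of another kind, since fat body remained raised. The Hox genes set segment identity along the body axis, and the bithorax complex on 3R holds Ultrabithorax (Ubx), abdominal-A (abd-A) and Abdominal-B (Abd-B). From 12476795 to 12803490, its 373 shared fragments averaged 2.74 in fat body (SD 1.89) and 5.31 in glia (SD 1.68), with a brain mean of 7.42. Glia was over 1 higher at 302 of them and fat body at 6. All 11 runs of at least 5 fragments there had glia higher.

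Within that complex the gap was wider at abd-A and Abd-B than at Ubx. The run over the upper part of Ubx, from 12517583 to 12564609, averaged 2.89 in fat body and 5.52 in glia, a difference of -2.63. Between Ubx and abd-A, 4 runs of 6 to 14 fragments had fat body at 3.51 to 4.65 and glia at 5.13 to 6.16, with differences of -1.28 to -1.62. The abd-A run from 12624568 to 12677761 (73 fragments) had a lowest, median and highest score of -0.29, 1.91 and 5.84 in fat body, against 3.48, 5.79 and 8.89 in glia. Its mean difference was -3.81 (SD 1.34). The Abd-B run from 12681942 to 12794059, with 125 fragments the longest run of either sign, ranged from -1.30 over 2.55 to 7.10 in fat body and from 1.90 over 5.89 to 8.29 in glia. Its mean difference was -3.31 (SD 1.30). In these 2 runs the ranges overlapped, and fat body was on average above its median. Over these runs from Ubx to Abd-B, means ranged over 2.00 to 4.65 in fat body and over 5.13 to 6.16 in glia.

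Just before the lower end of the complex the direction turned. From 12439877 to 12473971, 44 fragments averaged 2.42 in fat body (SD 2.59) and -1.24 in glia (SD 1.53), a difference of 3.66, with brain at -1.16. The next run of at least 5 fragments, from 12477871 to 12482004, overlaps the Ubx window within the complex. There glia was higher again, at -1.69 in fat body and 0.78 in glia. No listed gene lies in the first of these, so it is given by position only.

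In the Antennapedia complex, the anterior Hox cluster of the same arm, Antennapedia (Antp), which specifies thoracic identity, was the 1 gene with a usable position and profiles over 1 apart. The Antp run from 2737519 to 2799815 (62.3 kb, 79 fragments) ranged from -1.59 over a median of 1.95 to 6.60 in fat body, and from 2.06 over 5.12 to 7.96 in glia. Its means were 1.84 in fat body and 5.08 in glia, a difference of -3.24 (SD 1.45). Of the 373 shared fragments of the complex, 13.9% were over 1 higher in fat body and 50.4% over 1 higher in glia. Stretches with no listed gene also parted: the run from 2541413 to 2567174 (26 fragments) averaged 1.91 in fat body and 3.89 in glia, that from 2568516 to 2579106 had 2.89 and 5.05, and that from 2585148 to 2591082 was the other way round, at 3.33 and 1.36. At the other listed genes the window means were closer. The locus of labial (lab), the Hox gene of the head and midgut, averaged 5.75 in fat body and 4.78 in glia. Deformed (Dfd), of the jaw segments, had 4.10 and 4.50. Sex combs reduced (Scr), of the labial and first thoracic segments, had 3.72 and 3.95, and the pair-rule gene fushi tarazu (ftz) had 3.58 and 4.41. Of the 8 genes of the list with a usable position, Antp, Ubx, abd-A and Abd-B were over 1 higher in glia, none was over 1 higher in fat body, and the 4 others lay within 1. Among all shared fragments 17.3% were over 1 higher in glia, and among those over 2 in glia 50.9% were. Among those over 2 in both profiles, 23.8% were over 1 higher in glia and 19.9% over 1 higher in fat body. Of the 8 genes, 7 averaged over 2 in fat body and 8 in glia.

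**Figure D4:**
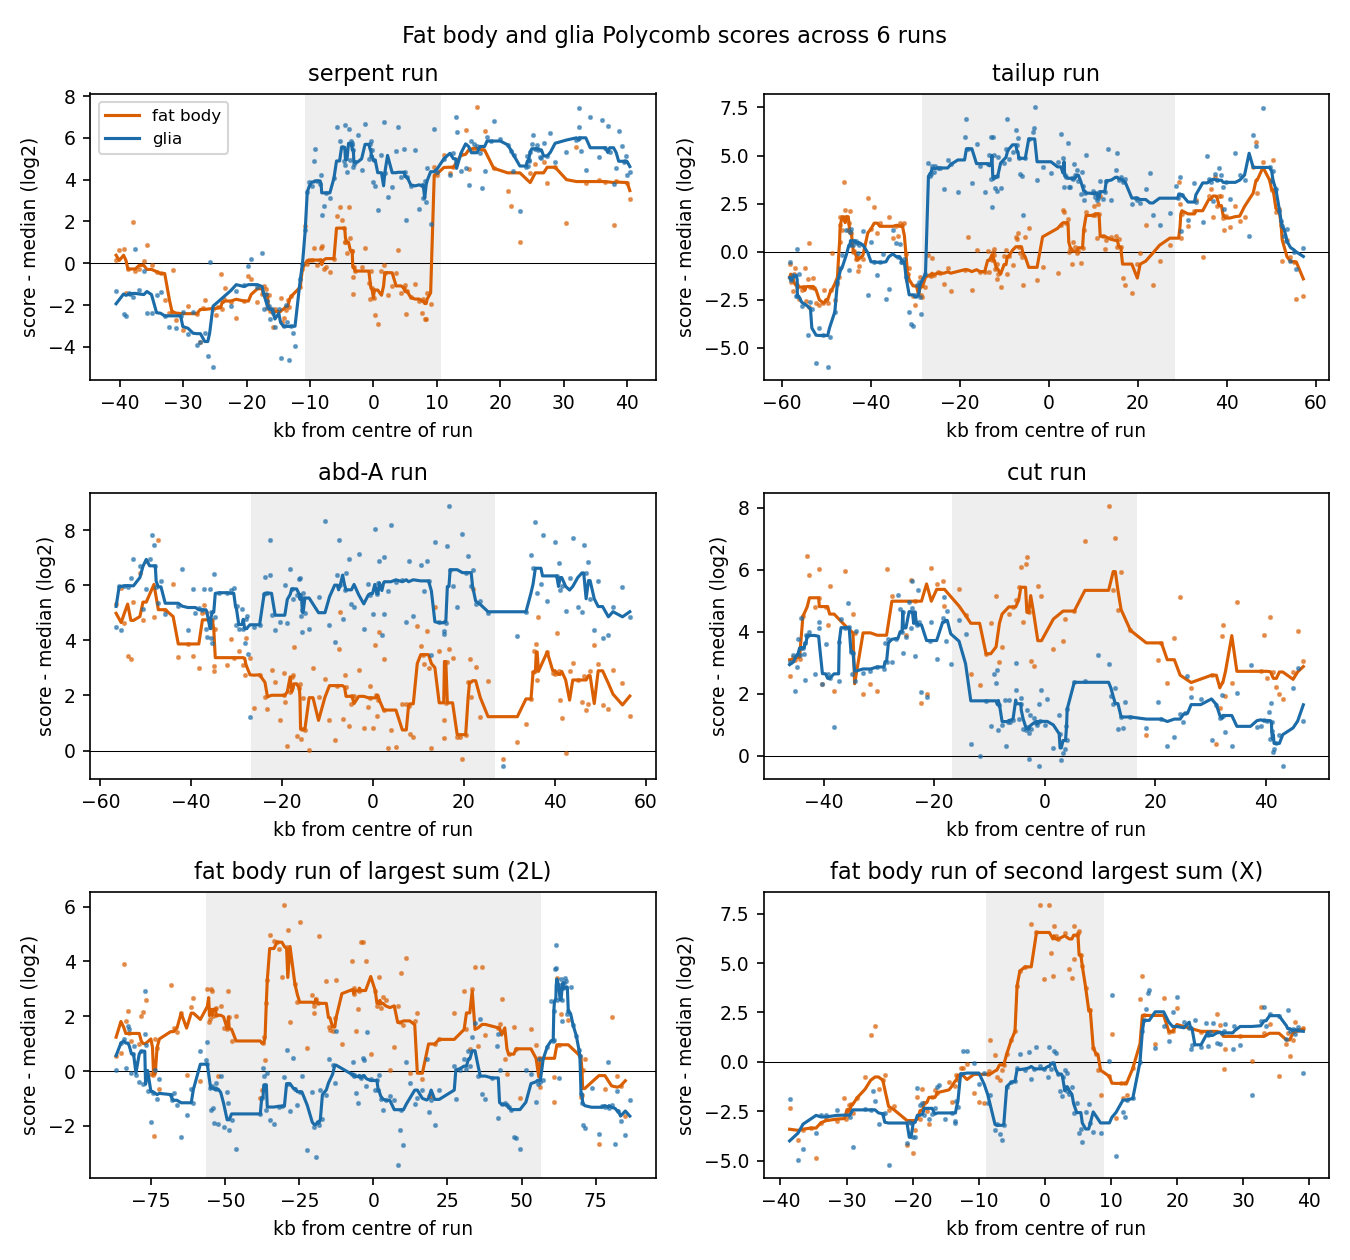
Centred scores (y, log2) of fat body (orange) and glia (blue) by distance from the centre of a run in kb (x), for 4 runs at named genes and the 2 fat body runs of the largest summed difference. Points are fragments, lines a running median over 7 fragments, and grey marks the run. At srp and tup fat body lies near its median inside the run (means -0.26 and -0.04), whereas at abd-A it stays raised (2.00) below a higher glia profile (5.81), and at cut the order is the other way round.

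Among the early segmentation genes, most were raised in both tissues. Of 16 with a usable position, fat body exceeded 2 at 10, glia at 13 and brain at 16. The 5 over 1 higher in glia were knirps (kni), Krüppel (Kr), odd skipped (odd), paired (prd) and empty spiracles (ems). For comparison, 17.3% of all shared fragments and 50.9% of those over 2 in glia were over 1 higher in glia. Of those over 2 in both profiles 23.8% were. The gap gene kni, a nuclear receptor-like zinc finger factor, averaged 0.75 in fat body (SD 1.08, 17 fragments) and 3.66 in glia (SD 0.81), and fat body was lower at all 17. The gap gene Kr averaged 1.17 in fat body (SD 1.91) and 3.44 in glia (SD 1.49). The zinc finger gene odd averaged 2.25 in fat body and 4.07 in glia. The pair-rule gene prd averaged 0.95 in fat body and 2.68 in glia. The head gap gene ems had 3.67 in fat body and 5.34 in glia. A run that overlaps it held 49 fragments with a mean difference of -2.36.

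The head homeobox gene ocelliless (oc) was the single segmentation gene over 1 higher in fat body, at 5.74 (SD 1.17) there and 4.67 (SD 0.81) in glia. Engrailed (en) and its partner invected (inv), which mark posterior compartments, were alike, at 5.66 and 4.33 in fat body and 5.22 and 3.81 in glia. caudal (cad), a posterior determinant, had 4.68 in both profiles. The gap gene hunchback (hb) was near the median in both, at -0.01 in fat body and 0.16 in glia, whereas its brain mean was 7.12. The slp1, slp2, tll, gt, eve and btd loci differed by less than 1 between the profiles.

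Among tissue selector genes, cut (ct) was the 1 usable locus over 1 higher in fat body. ct encodes a homeodomain protein of sensory organ and other cell fates. Over its window of 76 fragments on X the mean was 3.10 in fat body (SD 2.22) and 0.70 in glia (SD 1.37), with brain at 3.88. Fat body was higher at 72 of the 76, and at 65 of them by over 1. The gap was widest in a run from 7497198 to 7530247, with 4.74 in fat body and 1.47 in glia, and beyond the lower end of the ct window a run from 7484893 to 7490472 had both raised, at 5.15 and 3.46.

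Of all shared fragments 17.3%, and of those over 2 in glia 50.9%, were over 1 higher in glia. Of those over 2 in both profiles 23.8% were. Fat body and glia each exceeded 2 at 11 of the 13 selector genes. Of 13 selector genes, 4 were over 1 higher in glia. They were spalt-related (salr), a zinc finger gene of wing and eye patterning, at 1.57 in fat body and 3.60 in glia; teashirt (tsh), a trunk identity gene, at 2.28 and 4.03; ladybird late (lbl), a muscle and heart identity gene, at 3.32 and 4.76; and mirror (mirr), of the Iroquois group, at 3.20 and 4.57. The partner of salr, spalt major (salm), was at 4.06 in fat body and 4.37 in glia, so the pair differed in how far the profiles parted. The other Iroquois genes araucan (ara) and caupolican (caup) were at 4.07 and 3.95 in fat body and 4.59 and 4.61 in glia. dachshund (dac), of the eye and leg, was at 4.74 and 3.99, and its partner in eye formation eyes absent (eya) at 2.94 and 2.91. The heart determinant tinman (tin) and its neighbour bagpipe (bap) were at 1.88 and 3.98 in fat body and 1.16 and 4.23 in glia, and vvl, a POU factor gene, at 2.85 and 2.97.

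The share over 1 higher in glia was 17.3% of all shared fragments and 50.9% of those over 2 in glia. Of those over 2 in both profiles it was 23.8%. Of the signalling genes, 3 of 4 were over 1 higher in glia. Among these ligand loci wingless (wg) had 4.01 in fat body and 5.04 in glia, Wnt6 had 1.77 and 3.05, and hedgehog (hh) had 0.08 and 1.38, each just over 1 higher in glia. The BMP ligand decapentaplegic (dpp) was at 1.57 in fat body and 1.84 in glia. The SD of the hh fragments was 1.94 in fat body and 3.32 in glia, wider than the gap between the means.

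Of the glial and neural regulators with a usable position, ac alone was over 1 apart. These were 2 of the 4 listed glial genes and 2 of the 6 listed neural ones. The loci of repo, pnt, sc, l(1)sc, ase and elav had no usable position and were not read. The locus of glial cells missing (gcm), the switch gene of glial fate, had a mean score of -0.55 in fat body and -1.27 in glia, and its partner gcm2 of 0.37 and 0.75, while brain was at 3.11 and 4.79. The proneural gene achaete (ac) was over 1 higher in fat body, at 1.53 in fat body and -0.31 in glia, from 8 fragments. The neural patterning gene vnd had 2.16 and 2.88. The window of the alcohol dehydrogenase gene Adh, which is strongly active in fat body, averaged near the median in both, at 0.14 and 0.33. A run of 43 fragments that overlaps this window, from 14618834 to 14642361, had fat body higher by a mean of 2.05. The bHLH repressor genes E(spl)mdelta-HLH and E(spl)m8-HLH of the Notch pathway were at -0.90 and -0.04 in fat body and 0.04 and 0.12 in glia.

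In total 3 of the 50 listed genes with a usable position were over 1 higher in fat body and 17 over 1 higher in glia, with a median difference of -0.36. Over all 10649 bins of 10 kb, which were not picked for a high score, the shares were 30.7% and 9.62%, with a median of 0.53. Of the 14941 shared fragments over 2 in glia, 1643 were over 1 higher in fat body and 7598 in glia, with a median of -1.04. Of the 23758 over 2 in fat body, 15544 and 1958 passed those limits, with a median of 1.66. An excess towards glia thus also appears when fragments are picked by a high glia score alone, without regard to gene. Of the 8240 over 2 in both profiles, 1643 were over 1 higher in fat body and 1958 in glia, with a median of -0.02. The list was made of developmental regulators, many of them known Polycomb targets, and a few fat body product genes, of which Adh had a usable position, and 37 of its genes exceeded 2 in glia, so it is not a sample of the genome. The scatter of a bin's mean difference, from odd against even fragments, was 0.34. Of the 20 genes, 13 stayed over 1 apart under every alternative tried; Wnt6, ems, hh, lbl, mirr, oc and wg did not. All 20 kept their sign, which recentring alone could not have changed at a difference over 1. Of the 30 listed genes within 1, 14 passed 1 under some alternative. As deposited, 12 listed genes were over 1 higher in fat body and 11 in glia.

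**Figure D5:**
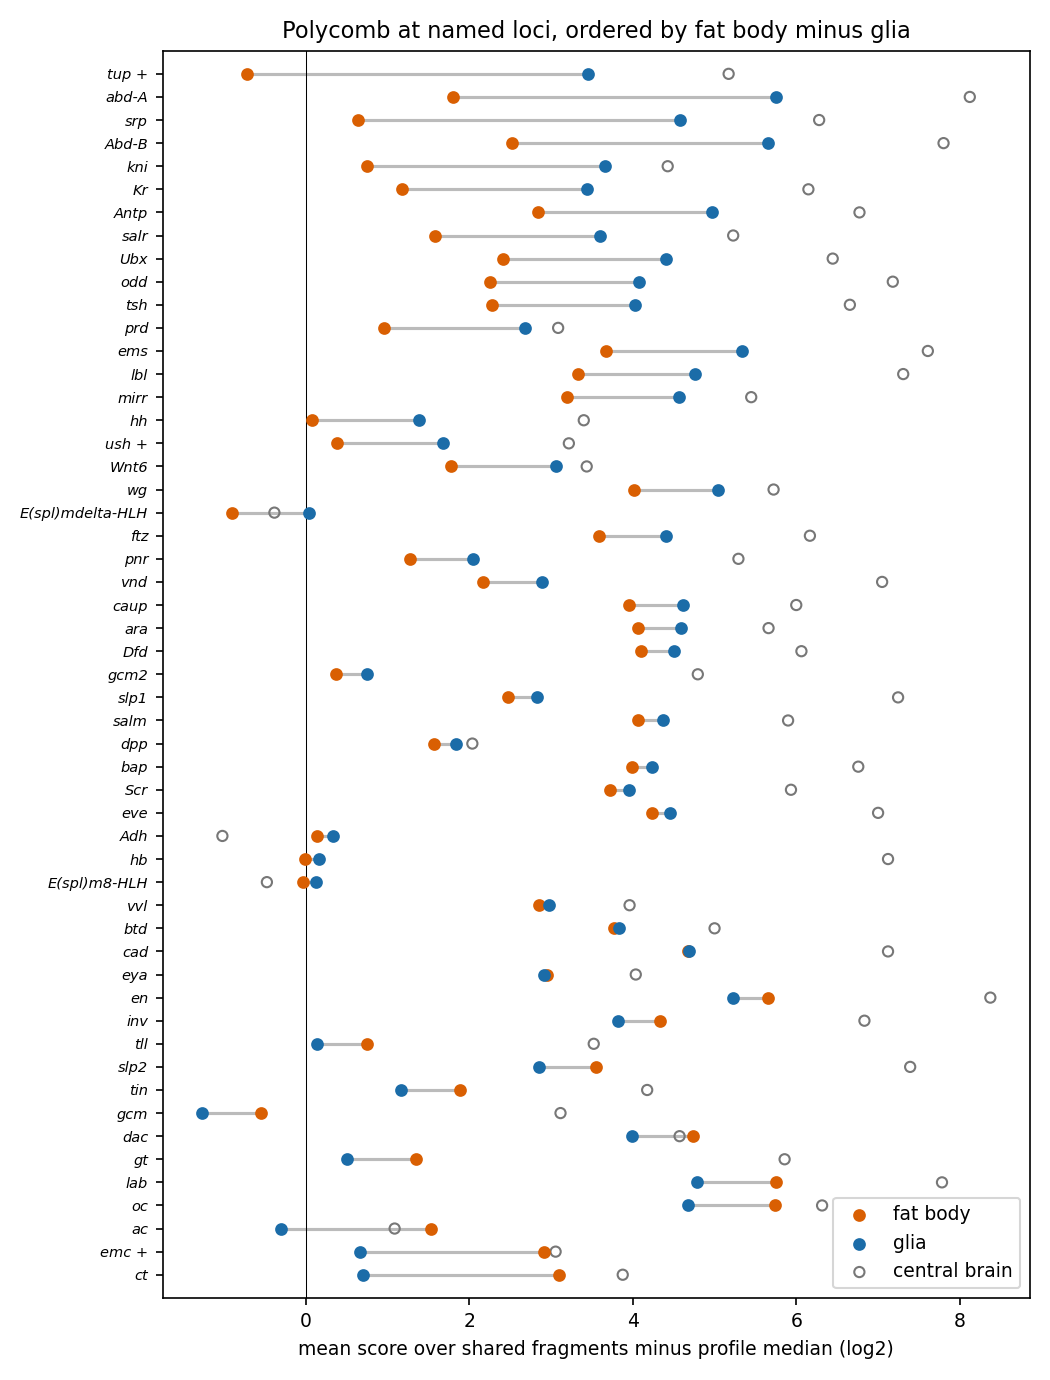
Mean centred score (x, log2) over shared fragments in the window of each named gene, in fat body (orange), glia (blue) and central brain (grey circles), ordered by the difference from glia higher at the top to fat body higher at the bottom. A plus marks genes added after their values were seen. abd-A, srp and Abd-B have the widest gaps towards glia among the listed genes, and ct the widest towards fat body.

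Another 2 named runs overlapped a gene recognised afterwards. The run on 2L from 483173 to 531216 (88 fragments) overlaps u-shaped (ush), whose product is a zinc finger partner of GATA factors, and averaged 0.57 in fat body and 2.71 in glia, with brain at 3.46. The ush window, from 517505 to 545873, lies only partly in this run. It averaged 0.38 in fat body and 1.68 in glia, a difference of -1.30, or -0.61 as deposited. The run on 3L from 729432 to 767284 (78 fragments) holds extra macrochaetae (emc), which encodes an HLH protein that blocks proneural factors. It averaged 2.69 in fat body (SD 1.56) and 0.81 in glia (SD 1.05), with brain at 2.54. At emc all 40 fragments of the gene window were higher in fat body.

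The other fat body runs are given by position. The run of the largest sum lay on 2L from 14725274 to 14837534 (112 kb, 96 fragments), with a lowest, median and highest score of -0.98, 2.19 and 6.08 in fat body, against -3.42, -0.85 and 1.76 in glia. Its mean difference was 3.04 (SD 1.62), and the brain mean was 0.41. The run of the largest mean lay on X from 21240556 to 21258012 (36 fragments), with -1.67, 4.28 and 7.96 in fat body, against -4.06, -1.45 and 0.74 in glia. Its mean difference was 5.28 (SD 2.39), and the profile plot shows a narrow fat body peak in its centre. Brain was at -3.12 there, from 16 fragments.

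Fat body runs differed in whether the brain was also high. On chromosome 4 from 512721 to 565996, 66 fragments averaged 2.58 in fat body and -0.11 in glia, and brain was at 3.18. On 3R from 14055631 to 14067301, 21 fragments had a lowest, median and highest score of -1.81, 5.00 and 8.17 in fat body, against -2.55, -0.52 and 2.82 in glia, and the brain mean was 3.52. In the 10 kb on either side of this 3R run, fat body was at -1.16 and -1.51 and glia at -1.45 and -1.15. These places were high in fat body and in the whole brain and near the median in glia.

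At the remaining ones brain was near or under its median. From 7298171 to 7330732 on 2R fat body averaged 3.00 and glia 0.58, and brain was at -0.26. From 18586949 to 18605669 on 3R the fat body mean was 2.49, the glia mean -0.17 and the brain mean -1.08. On X, the run from 11860612 to 11907666 averaged 2.12 in fat body and -0.26 in glia (brain -1.28), and the shorter one from 4091503 to 4102637 had 3.71 in fat body and -0.05 in glia. A run on 2L from 8659591 to 8671708 had 2.07 in fat body and -1.67 in glia. In 2 runs the gap came largely from a low glia score: on 2R from 9759213 to 9783606 fat body was at 0.50 and glia at -2.69, and on 3R from 7483833 to 7509704 fat body was at 1.10 and glia at -1.44.

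Among the glia runs with no listed gene, that on 2R from 18880305 to 18934431 had 0.98 in fat body and 3.31 in glia, with brain at 3.26. The run on X from 19177845 to 19222299 (101 shared fragments) had -0.72 in fat body and 1.41 in glia, and brain was at -0.09. On 2R from 12698599 to 12738042, fat body was at -0.52 and glia at 1.37, while brain was at 5.06. At the last 2 runs a low fat body score made up more of the gap than a high glia score. From 19937466 to 19952711 on 3R the mean was -2.54 in fat body and 1.45 in glia, and from 5960192 to 5989967 on 3L it was -2.03 in fat body and 1.66 in glia, with brain at -0.62 and 0.05.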

How the data were processed

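The authors' deposited table holds 1 log2 score per GATC fragment and tissue: Dam-Polycomb over Dam only, as a mean of the replicates (per the file headers and the design text of the series). The submitters' processing notes name cutadapt, Bowtie2, HTSeq and the build dm3, without versions. Depth, single replicates and the rule for missing scores are not given in the sources used here. Base 2 was read from the scores themselves: around the most frequent score, the steps that small whole read counts give (tolerance 0.0011) held 3944 fat body and 4150 glia fragments in base 2 and no more than 425 in bases e and 10.

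Members, gene lists and rules were chosen with earlier results of these data known. Runs join consecutive shared fragments of one arm and sign, skipping unscored ones. Named runs are, per direction, the 10 of at least 5 fragments with the largest summed difference and the 5 of at least 10 fragments with the largest mean. Named genes are the listed ones. No dm3 annotation was used: gene positions are background knowledge, kept where an end lay within 5 kb of the spacing in a release 6 table, from which no coordinate was taken; 50 of 77 listed genes and 3 of 10 added ones were kept. This tolerance was narrowed to 5 kb after locus values had been seen. A gene window has 5 kb added on each side. It is approximate to that distance at the end that passed, and the other end may lie further off. No library depth or interval could be given. Alternatives were other centring, quantile normalization, length limits, thresholds, smoothing, bins, run rules and leaving out X. The run caller was tested on simulated shifts. Work used Python 3.11.15, numpy 2.4.6, pandas 2.3.3, scipy 1.17.1 and matplotlib 3.10.9.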

Additional observations from a re-analysis of the deposited data

How the results depend on the processing

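The mean differences of the 24 named runs and 53 gene windows moved by less than their SD over fragments under every setting tried. That is a loose limit, since settings that only recentre the profiles move every fragment by the same amount, smaller than each SD. The 24 runs were picked for a large difference of a single sign, and all kept their sign. Of the 53 windows, 35 kept it and 18 changed it under at least 1 setting, 16 of them as deposited; each of the 18 was within 0.66 of equal as centred here. Counts moved more. As deposited, 12327 fragments were over 1 higher in glia, 1317 runs had glia higher, and 12 listed loci were over 1 higher in fat body and 11 in glia. A threshold of 0.5 gave 36625 fragments higher in glia, and a threshold of 2 gave 22721 higher in fat body and 8980 in glia. A running mean over 11 fragments gave 13199 fragments higher in glia, and 10-kb bins gave 3268 bins higher in fat body and 1024 in glia. Runs of at least 3 fragments numbered 9227 with fat body higher and 5479 with glia higher, runs of at least 10 numbered 2379 and 820, and the sign of the running mean gave 2363 runs with fat body higher. The median over fragments put 5 listed loci over 1 higher in fat body. Runs split, after quantile normalization, into 4368 with fat body higher and 3849 with glia higher, and into 4379 and 3795 after subtraction of length class medians, a setting chosen after seeing the data. No paired analysis was possible because the deposited values are means over replicates, and no replicate could be left out. The unknown depth limits how far single fragments can be read.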
